A study of Mus musculus with 12 samples.

Results

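The 46 genes described here encode the proteins that take up, store and burn fatty acids in the heart. They were listed by symbol, all 46 were found among the 46983 genes of the count files through the Ensembl identifiers, and all 46 passed the filter on low counts. RNA from the left ventricle (LV) of 12 mice aged 12 weeks was sequenced from the 3′ ends of transcripts. There were 4 groups of 3 samples each. The groups were Wt and Hif1a+/- offspring from non-diabetic pregnancies, called unexposed here, and Wt and Hif1a+/- offspring from diabetic pregnancies, called diabetes-exposed. All offspring were of the FVB strain and were born to Wt dams mated with Hif1a+/- males, the dams of the exposed groups having been made diabetic with streptozotocin, a toxin of the insulin-producing beta cells. The Hif1a+/- animals carried 1 null allele (Hif1a tm1jhu) in every cell, so the effects of the genotype in cardiomyocytes cannot be told apart from those in other cells.

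Fatty acids are the main fuel of the adult heart. Lipoprotein lipase frees them at the vessel wall, CD36 and binding proteins bring them into the cardiomyocyte, and acyl-CoA synthetases activate them. The carnitine shuttle carries them into mitochondria, where beta-oxidation shortens them and electron transfer flavoproteins pass the electrons to the respiratory chain, while the surplus is kept as triglyceride in lipid droplets. The nuclear receptor PPARα switches on many of these genes, and HIF-1α, the oxygen-regulated subunit of the HIF-1 transcription factor, is known to shift metabolism from fatty acids towards glucose.

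Counts per sample summed to between 16132442 and 39812939, and the 46 genes took between 2.65% and 3.09% of them. Levels are given as CPM, counts scaled by TMM to a common library size, and are compared between samples, not between genes. The Hif1a level was 55.7, 57.0 and 71.8 CPM in unexposed Wt, 47.9, 59.3 and 58.6 CPM in diabetes-exposed Wt, 89.4, 78.8 and 88.9 CPM in unexposed Hif1a+/- and 70.5, 64.8 and 81.5 CPM in diabetes-exposed Hif1a+/-. Where these reads fall relative to the deleted part of the gene was not tested, so they do not check the genotype. The labels give every animal as female and the design text as male. In 11 samples the summed level of 4 Y-linked genes was above that of Xist, and in 1 sample, diabetes-exposed Hif1a+/- replicate 72, Xist was above them, so the counts and medians of the 3 comparisons of that group with another group are also given without it. Unexposed Wt replicate 25 stood apart in the red cell gene Hbb-bs, at 4369 CPM against 114 to 1099 CPM in the other samples. Markers of fat cells were near 0, with Adipoq at most 1.09 CPM and Plin1 at most 0.732 CPM, while the 8 cardiomyocyte markers summed to between 88989 and 100964 CPM. In bulk LV, fewer cells of a type and less RNA per cell cannot be told apart.

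Promoters are shown for 3 genes on which the results below turn: G0s2, with the smallest p of the 46 genes, Ppara, the regulator of the pathway, and Hadhb, which shares its start region with Hadha. They were taken from RefSeq (build GRCm38.p6), run 5′ to 3′ on the strand of the gene from 250 bases before to 50 bases after the start, and have the HIF core letters ACGTG or GCGTG, on either strand, in capitals. The G0s2 window lies at chr1:193273139-193273438 on the minus strand, that of Ppara at chr15:85735526-85735825 on the plus strand and that of Hadhb at chr5:30155003-30155302 on the plus strand.
G0s2: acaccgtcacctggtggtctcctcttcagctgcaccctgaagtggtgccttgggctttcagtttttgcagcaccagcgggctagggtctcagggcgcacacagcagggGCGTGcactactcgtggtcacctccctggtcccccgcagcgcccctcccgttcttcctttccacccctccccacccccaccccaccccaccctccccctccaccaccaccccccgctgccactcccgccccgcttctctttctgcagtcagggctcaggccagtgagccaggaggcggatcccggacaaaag
Ppara: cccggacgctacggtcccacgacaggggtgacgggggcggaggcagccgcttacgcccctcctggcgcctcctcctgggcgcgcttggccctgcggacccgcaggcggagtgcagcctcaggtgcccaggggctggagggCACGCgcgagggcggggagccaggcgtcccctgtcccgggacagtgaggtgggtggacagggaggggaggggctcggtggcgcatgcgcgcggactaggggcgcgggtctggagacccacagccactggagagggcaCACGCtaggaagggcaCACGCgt
Hadhb: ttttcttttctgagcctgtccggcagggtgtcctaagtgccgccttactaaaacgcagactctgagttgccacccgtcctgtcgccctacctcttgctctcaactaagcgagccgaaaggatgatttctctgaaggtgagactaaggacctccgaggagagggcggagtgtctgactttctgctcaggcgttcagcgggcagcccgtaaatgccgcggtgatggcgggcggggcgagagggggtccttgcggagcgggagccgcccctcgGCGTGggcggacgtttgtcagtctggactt

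G0s2 holds 1 such core, Ppara 3 and Hadhb 1. Across the 32851 promoters of the table, 43.8% hold at least 1 of the 2 cores, and 22 of the 41 promoters listed for 36 of the genes (53.7%) do. GCGTG alone was in 32.4% of all promoters and in 21 of the 41 (51.2%), and ACGTG in 19.6% and in 6 (14.6%). The idealised DR1 element of PPAR, a direct repeat of the nuclear receptor motif with 1 spacer base, searched on both strands, was in 0.0396% of all promoters and in 0 of the 41. A match is only a run of letters. No promoter was listed for the other 10 genes, which are Angptl4, Gpihbp1, Lpl, Crat, Cpt1b, Acaa2, Decr1, Ppargc1b, Dgat1 and Dgat2. The promoters of Hadha and Hadhb share 228 bases, since the 2 genes are transcribed away from each other with 85 bases between them on chromosome 5.

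With edgeR's quasi-likelihood test, none of the 46 genes passed an adjusted p of 0.1 in any of the 9 comparisons, as was also true of all 14706 genes tested (0%). The clearest difference was in G0s2, which encodes the inhibitor of the triglyceride lipase ATGL (Pnpla2) and lies at chr1:193272161-193273217. Its level was 71.3, 86.8 and 53.0 CPM in unexposed Wt, 55.8, 51.7 and 42.7 CPM in diabetes-exposed Wt, 38.1, 50.4 and 90.5 CPM in unexposed Hif1a+/- and 34.8, 32.6 and 37.7 CPM in diabetes-exposed Hif1a+/-. The 3 diabetes-exposed Hif1a+/- samples were below all 9 other samples, but narrowly, at 37.7 CPM against 38.1 CPM for the nearest unexposed Hif1a+/- sample. Against unexposed Wt the log2 fold change was -1.01 ± 0.25 (SE), with an edgeR adjusted p of 0.41 and a DESeq2 adjusted p of 0.028. Against unexposed Hif1a+/- it was -0.77 ± 0.25, with adjusted p of 0.31 by edgeR and 0.12 by DESeq2, and it was -0.33 without unexposed Hif1a+/- replicate 44, the highest sample. Over both genotypes, diabetes-exposed samples were lower by a log2 fold change of -0.63 ± 0.18 (edgeR adjusted p 0.28, DESeq2 adjusted p 0.050). Without replicate 72 the edgeR difference from unexposed Wt was -0.95 ± 0.30. Macrophage markers moved in the same samples: the 5 markers summed to between 331 and 444 CPM in diabetes-exposed Hif1a+/- and to between 166 and 354 CPM in the other samples, and their part in the G0s2 result was not tested.

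**Figure D1:**
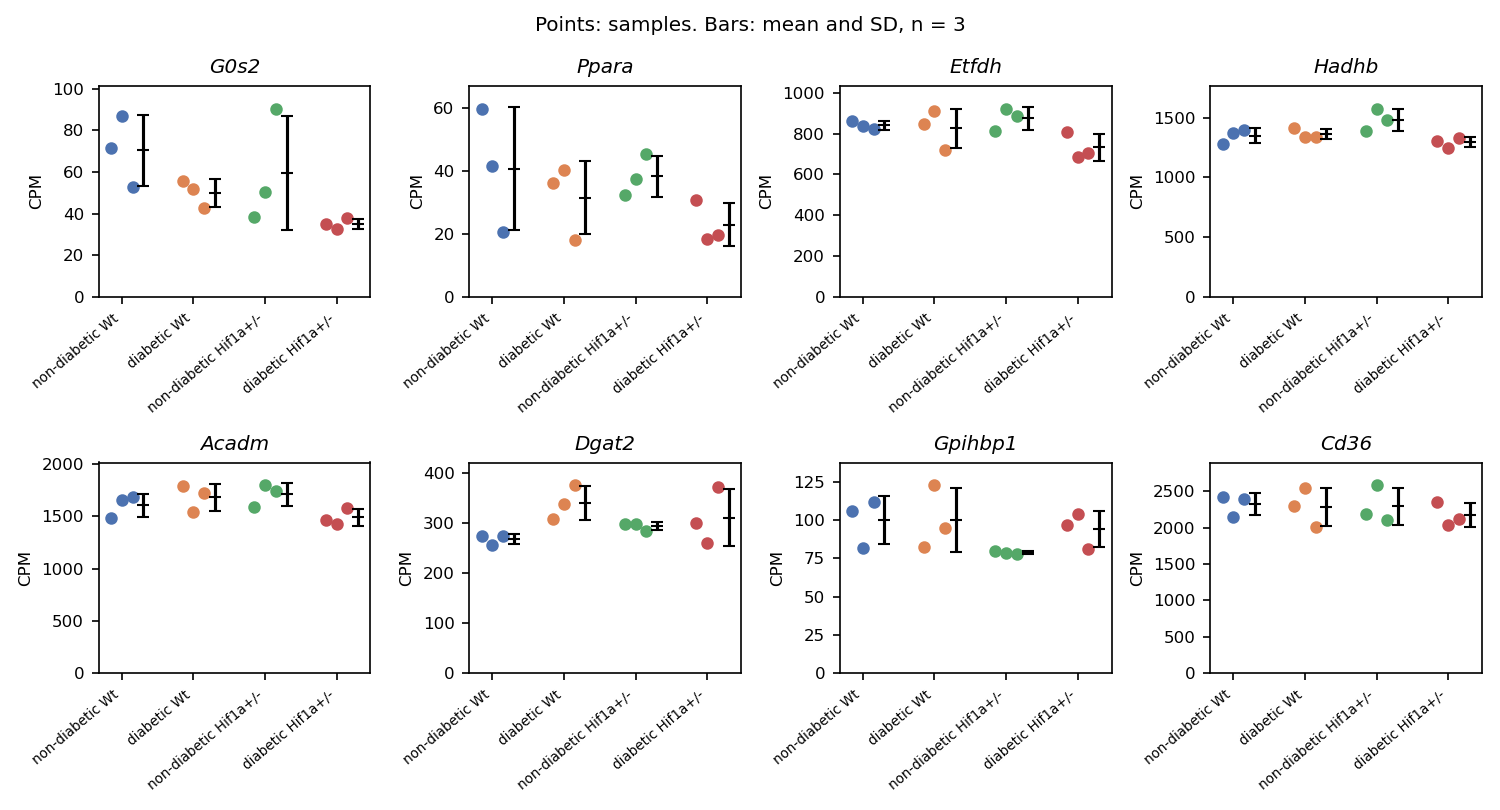
Level of 8 genes in CPM (vertical axis, from 0) in each sample of the 4 groups (horizontal axis), with the mean and SD (n = 3) in black. The 3 diabetes-exposed Hif1a+/- samples of G0s2 lie between 32.6 and 37.7 CPM, under all other samples but close to the lowest of them, while the Cd36 groups overlap.

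In diabetes-exposed against unexposed Wt hearts, 0 of the 46 genes passed by edgeR or by DESeq2 (0.0148% of 27079 genes by DESeq2), and 1 gene had an unadjusted edgeR p under 0.05, where 2.78% of all genes did. Dgat2, which makes the last step of triglyceride synthesis, was that gene. It had 273, 257 and 273 CPM in unexposed Wt and 308, 336 and 375 CPM in diabetes-exposed Wt, without overlap. The log2 fold change was 0.35 ± 0.12, with an edgeR adjusted p of 1.00. Dgat2 was also the single gene of the 46 whose groups did not overlap, where 5.54% of all genes did not. The beta-oxidation enzymes were close to level, with 11 of 13 above and a median log2 fold change of 0.05, against 0.03 for the 46 genes and 0.01 for all genes tested. Without unexposed Wt replicate 25, 6 of the 13 were above, with a median of -0.01. Without unexposed Wt replicate 42 all 13 were, with a median of 0.07, and without replicate 89 12 were, with a median of 0.10. The count of genes at an unadjusted edgeR p under 0.05 was 7 without diabetes-exposed Wt replicate 7 (5.63% of all genes). It was 5 without unexposed Wt replicate 89 (4.67% of all genes) and 1 or 2 without any other sample (2.06% to 4.35%).

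In unexposed Hif1a+/- against unexposed Wt hearts, again 0 genes passed by edgeR or by DESeq2 (0.00369% of all genes by DESeq2). Gpihbp1, which anchors lipoprotein lipase to the capillary wall, was the 1 gene with an unadjusted edgeR p under 0.05, against 0.959% of all genes. The level was 106, 82.0 and 112 CPM in unexposed Wt and 79.8, 78.4 and 77.7 CPM in unexposed Hif1a+/-, a log2 fold change of -0.35 ± 0.15 with an edgeR adjusted p of 1.00. The groups did not overlap in 3 of the 46 genes (6.52%, against 4.81% of all genes), namely Gpihbp1, lower, and Dgat2 and Acadvl, the very-long-chain acyl-CoA dehydrogenase, higher. All 7 genes of the carnitine shuttle and malonyl-CoA control had a higher mean, by log2 fold changes between 0.05 and 0.12, and 12 of the 13 beta-oxidation genes did, with a median of 0.08 against 0.0019 for all genes tested, but none passed the test. These beta-oxidation values turned on 2 samples. Unexposed Hif1a+/- replicate 32 was above the mean of the 12 samples in 12 of the 13 genes, replicates 14 and 44 in 3 and 7, and unexposed Wt replicate 25 in 0. Without replicate 32, 7 of the 13 genes were higher, with a median of 0.0092, and without replicate 25, 8 were, with a median of 0.01. All 13 were higher without unexposed Hif1a+/- replicate 14, with a median of 0.12, or without unexposed Wt replicate 89, with a median of 0.13. Gpihbp1 no longer had an unadjusted edgeR p under 0.05 without replicate 14, 32 or 44 of unexposed Hif1a+/- or without replicate 25 or 89 of unexposed Wt.

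Diabetes-exposed against unexposed Hif1a+/- hearts had more genes at an unadjusted edgeR p under 0.05, and more DESeq2 calls, than the other 4 comparisons of 2 groups. Of the 46 genes, 0 passed by edgeR, 0 by DESeq2 (1.44% of all genes by DESeq2), and 4, all lower, had an unadjusted edgeR p under 0.05, which is 8.70%, against 12.0% of all genes. These were G0s2, Etfdh, Hadhb and Acadm. The count depended on single samples. It was 1, G0s2, without replicate 72 (8.58% of all genes) and 2, G0s2 and Etfb, without unexposed Hif1a+/- replicate 32 (7.93%). It was 0 without unexposed Hif1a+/- replicate 44 (8.44% of all genes) and 3 to 6 without any other sample (8.42% to 14.4%). The groups did not overlap in 12 genes (26.1%, against 24.4% of all genes), 7 of them lower and 5 higher in diabetes-exposed Hif1a+/-. The lower ones were G0s2, Ppara, Etfdh, Hadhb, Acadm, Acadvl and Cpt1b, and the higher ones were Ucp2, Gpihbp1, Acaa1a, Echs1 and Acads, so that both directions occurred within beta-oxidation. Without replicate 72, 14 genes did not overlap, against 33.2% of all genes, 7 of them lower and 7 higher, with Dgat2 and Plin2 added to the higher ones. Etfdh, which passes electrons from the flavoprotein to ubiquinone, had 812, 922 and 887 CPM in unexposed and 806, 683 and 707 CPM in diabetes-exposed Hif1a+/-, a log2 fold change of -0.26 ± 0.10 (edgeR adjusted p 0.37, DESeq2 adjusted p 0.30). Hadhb, the thiolase subunit of the mitochondrial trifunctional protein, had 1393, 1578 and 1480 CPM against 1309, 1249 and 1328 CPM, a log2 fold change of -0.20 ± 0.08 (edgeR adjusted p 0.38). For Acadm, the medium-chain acyl-CoA dehydrogenase, the values were 1587, 1797 and 1744 CPM against 1465, 1425 and 1580 CPM, a log2 fold change of -0.20 ± 0.09 (edgeR adjusted p 0.42). Limma-voom with sample weights called Etfdh and Hadhb in this comparison (adjusted p 0.058 and 0.084), 2 of the 46 genes, against 6.37% of all genes. Across beta-oxidation, 9 of 13 genes were lower with a median log2 fold change of -0.08, and the median of the 46 genes was -0.05, against -0.01 for all genes tested. The direction rested on 2 samples. Without replicate 72 the median of the 46 genes was -0.00030, with 23 of 46 lower, and that of beta-oxidation -0.0051, with 7 of 13 lower. Without unexposed Hif1a+/- replicate 32 the medians were 0.04 and 0.02, with 19 of 46 and 6 of 13 lower. Other samples moved the medians further below 0. Without diabetes-exposed Hif1a+/- replicate 66 they were -0.12 and -0.11, with 37 of 46 and 9 of 13 lower. Without unexposed Hif1a+/- replicate 14 they were -0.09 and -0.12, with 29 of 46 and 9 of 13 lower. Without replicate 72 the log2 fold changes of Etfdh, Hadhb and Acadm were -0.20 ± 0.11, -0.16 ± 0.09 and -0.16 ± 0.11, with unadjusted edgeR p of 0.10, 0.11 and 0.17 (edgeR adjusted p 0.64, 0.65 and 0.68).

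Ppara varied widely within groups. The level was 59.7, 41.4 and 20.7 CPM in unexposed Wt, 36.1, 40.1 and 18.2 CPM in diabetes-exposed Wt, 32.2, 37.5 and 45.2 CPM in unexposed Hif1a+/- and 30.7, 18.4 and 19.5 CPM in diabetes-exposed Hif1a+/-. The last 2 groups did not overlap, with a log2 fold change of -0.73 ± 0.34 (edgeR adjusted p 0.42), and of -0.59 ± 0.39 without replicate 72 (edgeR adjusted p 0.67), whereas unexposed Wt replicate 89 was below the highest of the exposed samples. The samples low in Ppara were those with a lower level of genes with long transcripts relative to genes with short ones. The median level of 806 genes with a transcript over 8000 bases, relative to that of 3466 genes under 2000 bases, differed from the mean of the 12 samples by a log2 value between -0.28 and -0.15 in replicates 80, 89, 72 and 77, whose Ppara levels were the 4 lowest, and between -0.07 and 0.23 in the other samples. Ppara itself, with a longest transcript of 3413 bases, is in neither class. The part of transcript length in the Ppara result was not tested.

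In diabetes-exposed Hif1a+/- against unexposed Wt hearts, 0 of 46 genes passed by edgeR and 1, G0s2, by DESeq2 (0.453% of all genes by DESeq2). Unadjusted edgeR p was under 0.05 in 2 genes, G0s2 and Ppara, that is 4.35%, against 8.85% of all genes. Ppara had a log2 fold change of -0.81 ± 0.35, with an edgeR adjusted p of 0.55. Without replicate 72 it was -0.67 ± 0.39, with an unadjusted edgeR p of 0.11 (edgeR adjusted p 0.77), and the 2 genes with an unadjusted p under 0.05 were G0s2, lower, and Dgat2, higher by 0.33 ± 0.11 (edgeR adjusted p 0.58), against 7.18% of all genes. Ppara also lost an unadjusted p under 0.05 without unexposed Wt replicate 25 or 42 or diabetes-exposed Hif1a+/- replicate 77, and 7 genes had one without unexposed Wt replicate 89. The groups did not overlap in 3 genes, G0s2, Etfdh and Cpt1a, all lower, which is 6.52%, against 14.6% of all genes. Without replicate 72, 6 genes did not overlap, against 23.8% of all genes, the same 3 lower and Dgat2, Eci2 and Crat higher. The median of the 46 genes was then 0.07, with 15 lower. For 37 of the 46 genes the 95% interval of the fold change lay within 1.5-fold in both directions.

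**Figure D2:**
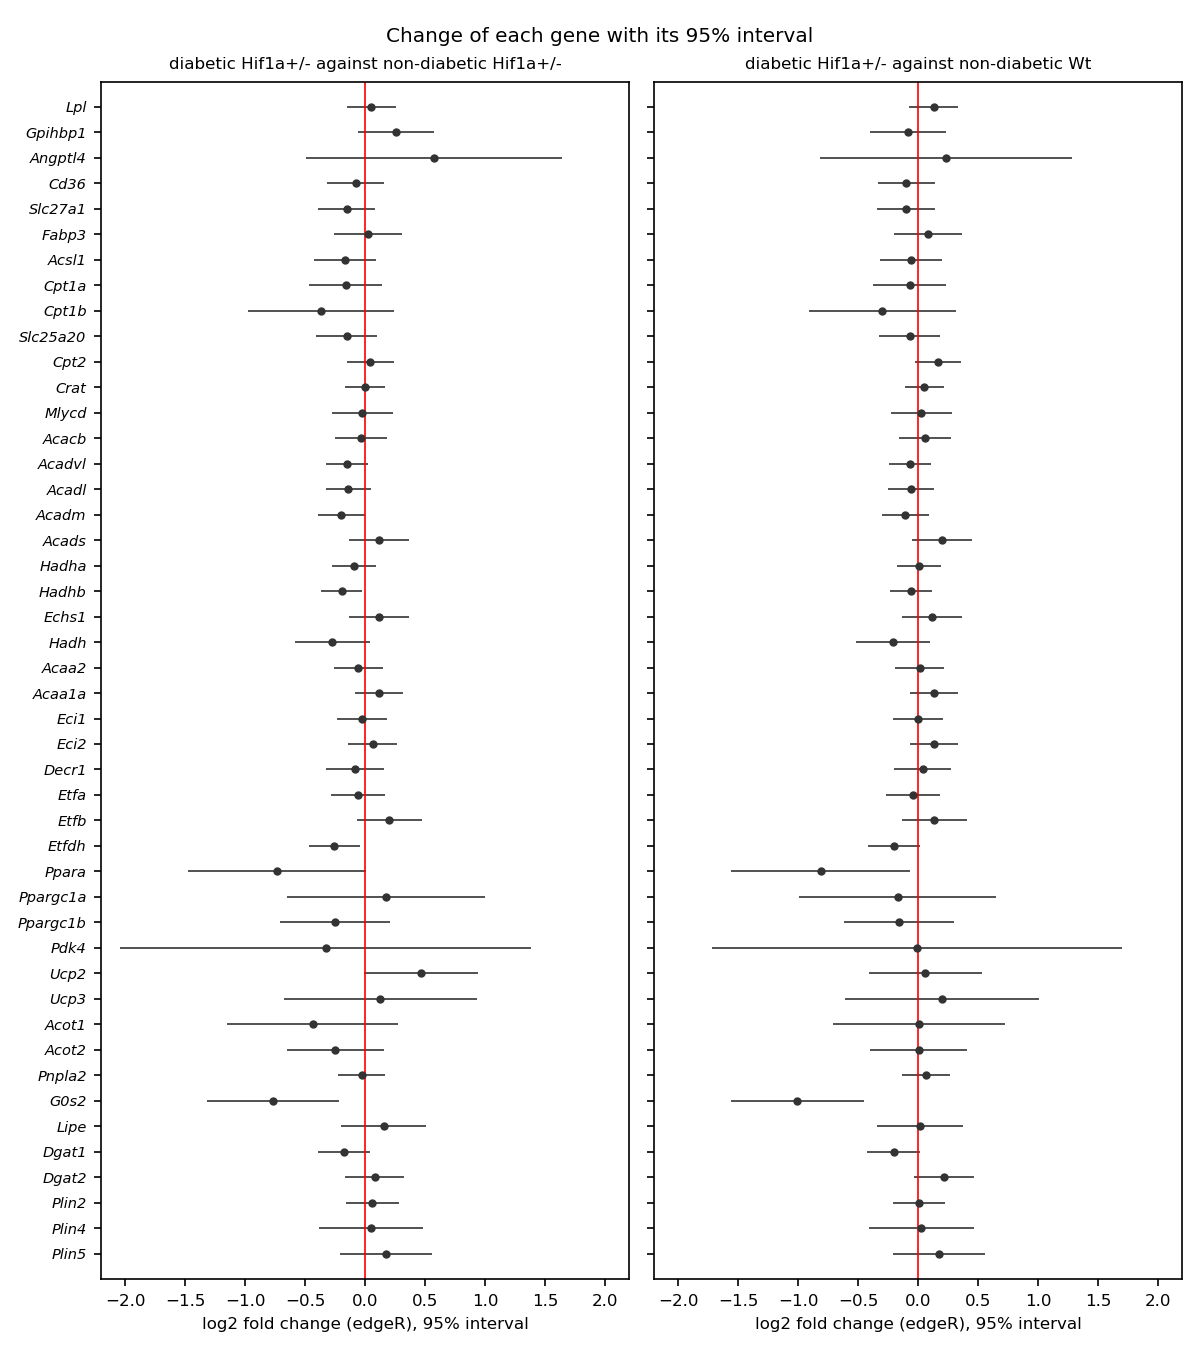
Log2 fold change of each of the 46 genes (points) with its 95% interval (lines) from edgeR, for diabetes-exposed Hif1a+/- against unexposed Hif1a+/- (left) and against unexposed Wt (right). G0s2 lies farthest below 0 on both sides, at -0.77 and -1.01, and the interval of Pdk4 is the widest.

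In diabetes-exposed Hif1a+/- against diabetes-exposed Wt hearts, 0 genes passed by edgeR or by DESeq2 (0.155% of all genes by DESeq2) and none had an unadjusted edgeR p under 0.05 (5.35% of all genes). G0s2 and Hadhb did not overlap between these groups, which is 4.35% of the 46 genes, against 7.94% of all genes. Without replicate 72, again 0 genes passed and 0 had an unadjusted edgeR p under 0.05 (4.28% of all genes), Eci2, higher, joined the 2 that did not overlap (14.1% of all genes), and the median of the 46 genes was 0.0027, with 23 lower. The count of genes under an unadjusted p of 0.05 was 5 without diabetes-exposed Wt replicate 7 (5.68% of all genes). It was also 5 without diabetes-exposed Wt replicate 80 (14.3% of all genes). The interaction of genotype and pregnancy gave 0 calls by edgeR and by DESeq2 (0% of all genes by each). Again no gene was under an unadjusted edgeR p of 0.05, against 2.52% of all genes. There were 4 without diabetes-exposed Wt replicate 7 (3.39% of all genes) and 0 to 2 without any other sample (1.64% to 7.74%). The interaction terms with the smallest p were those of Acadm, at -0.27 ± 0.13, Acadvl, at -0.22 ± 0.12, and Hadhb, at -0.21 ± 0.11, each with an edgeR adjusted p of 1.00. The term was below 0 in 36 of the 46 genes, with a median of -0.095, against -0.011 for all genes tested. Without 1 sample at a time this median ranged from -0.16 to -0.034. The direction of the 46 genes as a set was not tested.

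Over both genotypes, diabetes-exposed against unexposed hearts gave 0 calls by edgeR and 1, G0s2, by DESeq2 (1.46% of all genes by DESeq2). The 3 genes with an unadjusted edgeR p under 0.05 were G0s2 and Ppara, lower, and Dgat2, higher, which is 6.52%, against 11.3% of all genes. Without replicate 72, 2 of these, G0s2 and Dgat2, were under it (9.58% of all genes). There were 9 genes without diabetes-exposed Wt replicate 7 (15.7% of all genes) and 6 without unexposed Wt replicate 89 (16.7% of all genes). Hif1a+/- against Wt over both pregnancies gave 0 calls by edgeR and by DESeq2 (0.0259% of all genes by DESeq2). It gave 0 genes under an unadjusted edgeR p of 0.05 (2.69% of all genes). There were 4 without diabetes-exposed Wt replicate 7 (3.12% of all genes) and 0 to 2 without any other sample (1.93% to 6.82%). For any difference among the 4 groups, 0 genes passed by edgeR and G0s2 by DESeq2 (0.760% of all genes by DESeq2), and 1 of the 46 had an unadjusted edgeR p under 0.05 (6.0% of all genes).

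Cd36, the fatty acid transporter of the cardiomyocyte surface, showed no difference beyond the spread of the samples. It had 2419, 2144 and 2399 CPM in unexposed Wt, 2294, 2538 and 2011 CPM in diabetes-exposed Wt, 2192, 2584 and 2099 CPM in unexposed Hif1a+/- and 2355, 2040 and 2115 CPM in diabetes-exposed Hif1a+/-. The log2 fold change of diabetes-exposed Hif1a+/- against unexposed Wt was -0.10 ± 0.11, with a 95% interval from -0.34 to 0.14. By quantitative PCR on more samples per group, the paper reported Cd36 mRNA as lower in diabetes-exposed Hif1a+/- hearts than in the other groups. Those PCR values are not part of the data used here. Lpl, the lipase, ranged from 4954 to 6433 CPM and the groups overlapped. Crat, carnitine acetyltransferase, was the steadiest of the 46 genes, with the highest sample at 1.11 times the lowest. Acadl, the long-chain acyl-CoA dehydrogenase, was between 1534 and 1946 CPM, and Etfa, a flavoprotein subunit, between 760 and 1009 CPM. Pnpla2 itself, the lipase that G0s2 inhibits, was between 508 and 612 CPM with overlapping groups and a log2 fold change of 0.06 ± 0.09 in diabetes-exposed Hif1a+/- against unexposed Wt.

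The genes differed widely in their spread between samples of a group. The within-group SD of log2(CPM + 1) had a median of 0.15 over the 46 genes and 0.16 over all genes tested. It was 0.06 for Crat, 0.07 for Hadhb and 0.08 for Acadvl and Hadha, and 0.14 for Cd36. At the other end it was 1.24 for Pdk4, 0.66 for Angptl4, 0.59 for Ucp3, 0.58 for Ppargc1a, 0.53 for Ppara and 0.44 for Acot1, at least as wide as in 98.1% of the genes tested for each.

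**Figure D3:**
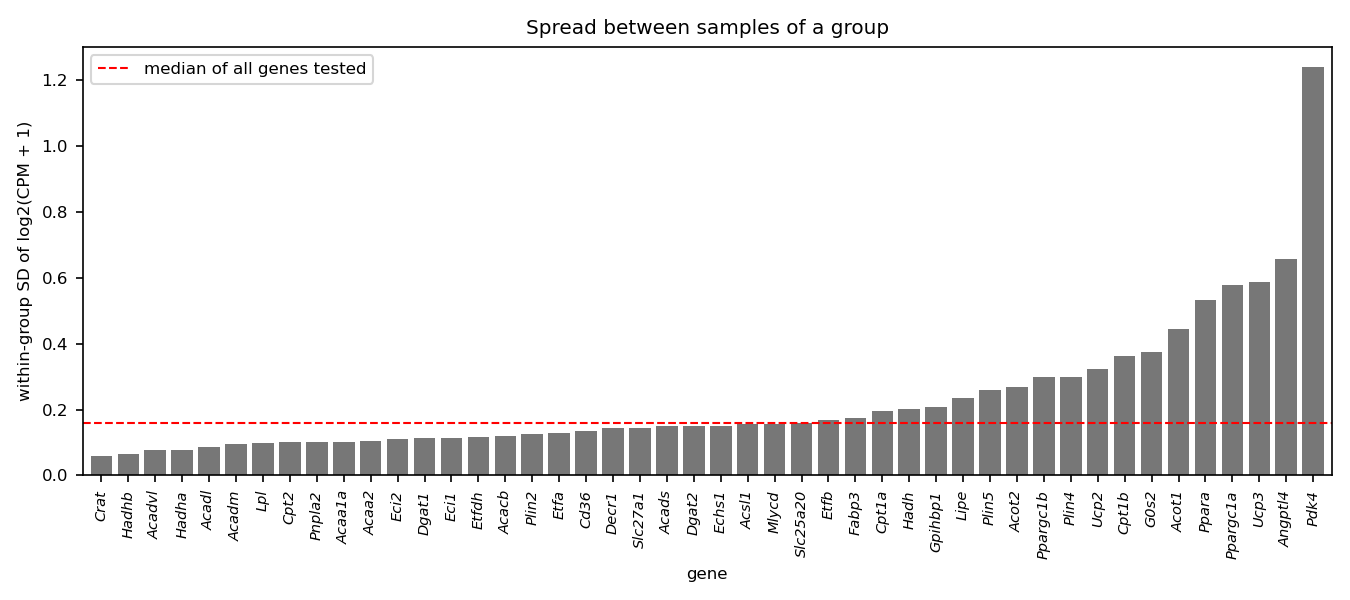
Within-group SD of log2(CPM + 1) (vertical axis) of the 46 genes, ordered by it (horizontal axis), with the median of all genes tested, 0.16, as a dashed line. Crat is lowest, at 0.06, and Pdk4 highest, at 1.24.

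Pdk4, the kinase that inhibits pyruvate dehydrogenase, was at 605, 1199 and 479 CPM in unexposed Wt, at 230, 1609 and 216 CPM in diabetes-exposed Wt, at 409, 1532 and 907 CPM in unexposed Hif1a+/- and at 1570, 479 and 219 CPM in diabetes-exposed Hif1a+/-. Each of the 4 groups held a high and a low sample, and the group means were between 685 and 949 CPM. Over the 12 samples, log2 levels of 4 of 6 genes moved with it, by two-sided permutation tests adjusted over the 7 pairs computed. Acot2 (r = 0.84, adjusted p = 0.00168; rho = 0.85, adjusted p = 0.0063) and Acot1 (r = 0.80, adjusted p = 0.00168; rho = 0.81, adjusted p = 0.0066) are thioesterases that cleave acyl-CoA. Angptl4, an inhibitor of lipoprotein lipase, had r = 0.71 (permutation adjusted p = 0.015) and rho = 0.69 (adjusted p = 0.037), and Ucp3, a mitochondrial carrier, r = 0.70 (adjusted p = 0.0095) and rho = 0.64 (adjusted p = 0.042). For Cpt1a r was 0.45 (permutation adjusted p = 0.16) and rho 0.48, and for Plin2, a coat protein of lipid droplets, r was 0.13 (adjusted p = 0.68) and rho 0.26. Without the 2 samples farthest from the median of Pdk4, diabetes-exposed Wt replicate 7 and diabetes-exposed Hif1a+/- replicate 66, r was 0.79 for Acot2 and 0.77 for Acot1, both with a permutation adjusted p of 0.0081, and 0.57 and 0.56 for Angptl4 and Ucp3, with an adjusted p of 0.11 for each, so that these 2 relations rest in part on those samples. As deviations from the group means, r was 0.84 for Acot2, 0.81 for Acot1 and 0.79 for Angptl4 (exact permutation within groups, adjusted p = 0.059 for the first 2 and 0.068 for Angptl4), and 0.69 for Ucp3 (adjusted p = 0.19).

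**Figure D4:**
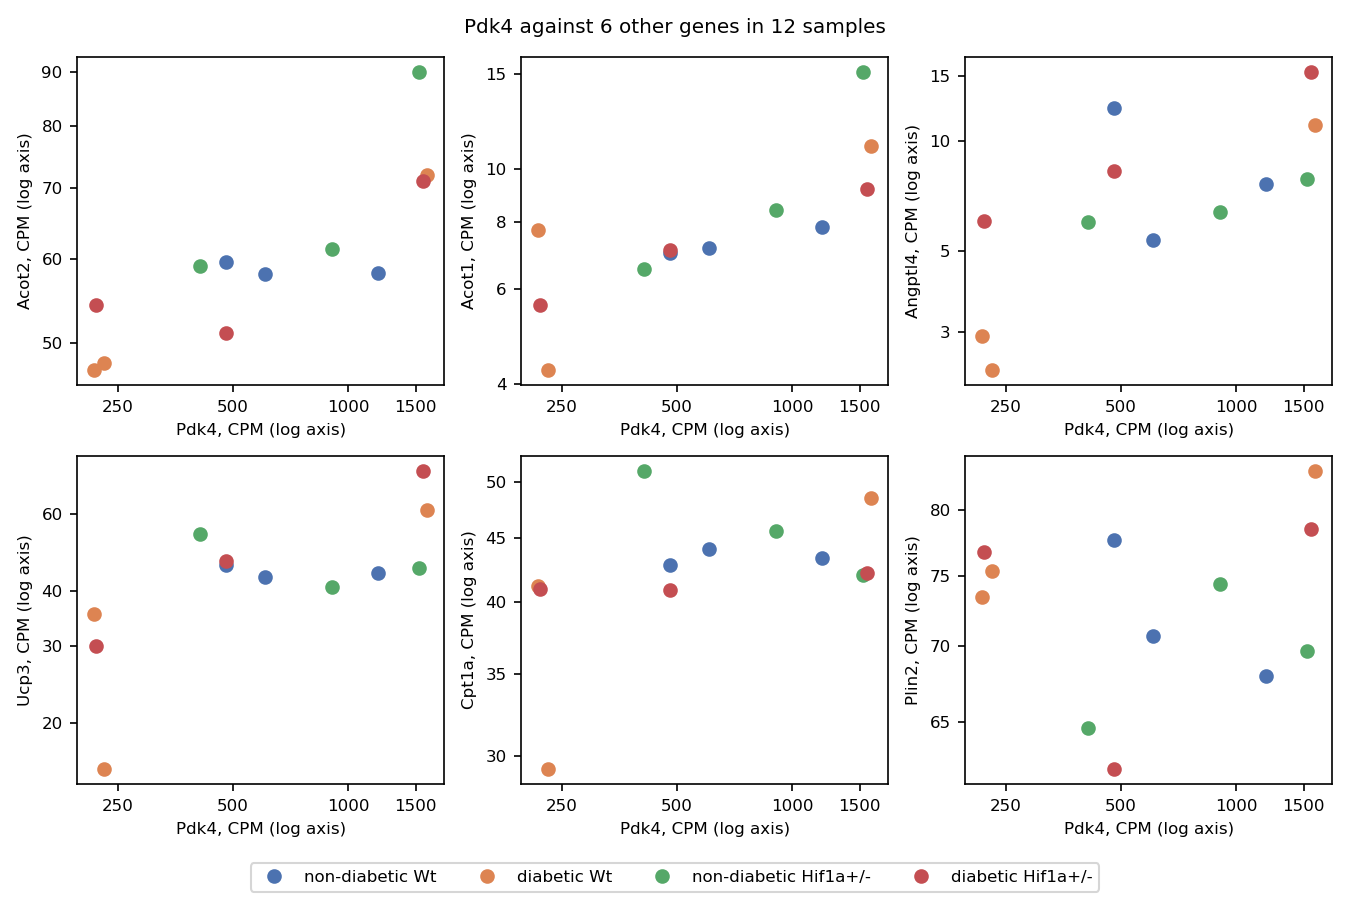
Level of Pdk4 in CPM (horizontal, log axis) against 6 other genes in CPM (vertical, log axes) in the 12 samples, coloured by group. Acot2, r = 0.84, and Acot1, r = 0.80, rise with Pdk4, and Plin2, r = 0.13, does not follow it.

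Several other genes varied widely between samples of a group. Ppargc1a, which encodes the coactivator PGC-1α of mitochondrial genes, had 199, 103 and 108 CPM in unexposed Wt, 139, 306 and 93.3 CPM in diabetes-exposed Wt, 103, 112 and 106 CPM in unexposed Hif1a+/- and 178, 94.4 and 89.9 CPM in diabetes-exposed Hif1a+/-, and its highest samples were diabetes-exposed Wt replicate 7, unexposed Wt replicate 25 and diabetes-exposed Hif1a+/- replicate 66. Ucp2, an uncoupling protein found in many cell types, had 135, 70.6 and 83.6 CPM in unexposed Wt, 86.5, 133 and 82.0 CPM in diabetes-exposed Wt, 77.2, 72.1 and 68.9 CPM in unexposed Hif1a+/- and 115, 95.01 and 90.5 CPM in diabetes-exposed Hif1a+/-. The Hif1a+/- groups did not overlap in Ucp2, with a log2 fold change of 0.46 ± 0.22 (edgeR adjusted p 0.42, DESeq2 adjusted p 0.36), while the Wt groups did. All 5 macrophage markers were also higher without overlap between the Hif1a+/- groups, where 24.4% of all genes did not overlap. Their part in the Ucp2 result was not tested.

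Among the droplet genes, Plin5, which coats droplets next to mitochondria, was between 138 and 238 CPM, Plin4 between 190 and 352 CPM and Lipe, hormone-sensitive lipase, between 33.2 and 58.5 CPM. Diabetes-exposed Wt replicate 7 and diabetes-exposed Hif1a+/- replicate 66 were the 2 highest samples in Plin4 and Plin5, as in Pdk4 and Ucp3. Plin2 kept between 62.1 and 83.1 CPM. Dgat1, the second enzyme of the last triglyceride step, had 28.0, 29.3 and 28.5 CPM in unexposed Wt and 24.3, 21.4 and 28.8 CPM in diabetes-exposed Hif1a+/-, a log2 fold change of -0.21 ± 0.10 (edgeR adjusted p 0.57), and the groups overlapped.

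Uptake and activation genes other than Cd36 did not separate the groups. Fabp3, the heart fatty acid binding protein, ranged from 1777 to 2626 CPM, Acsl1, the main cardiac acyl-CoA synthetase, from 881 to 1262 CPM and Slc27a1, a fatty acid transport protein, from 173 to 241 CPM, and for each of the 3 the lowest and the highest sample were of the same group. In the carnitine shuttle Cpt2 ranged from 268 to 357 CPM, Slc25a20, the carnitine-acylcarnitine carrier, from 155 to 239 CPM, and Cpt1a from 29.3 to 51.0 CPM. Mlycd, which breaks down malonyl-CoA, was between 131 and 178 CPM, and Acacb, which makes it, between 379 and 499 CPM. The trifunctional protein subunit Hadha was between 1578 and 1913 CPM and, like Hadhb, was highest in unexposed Hif1a+/- replicate 32.

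Acot1 and Acot2 are neighbours on chromosome 12 with 15616 bases between them, and 25.3% of the 75-base windows at the end of the Acot1 transcripts are also found in Acot2. Reads that match both genes are not counted on either, so the level of Acot1, between 4.24 and 15.2 CPM, is uncertain. Cpt1b, the muscle form of the carnitine transferase, shared 77.1% of these windows with Gm44502, a gene model overlapping it on the same strand. It counted only 4.29 to 10.1 CPM. The windows come from GENCODE M21, whereas the reads were counted with GENCODE M8, which may lack such a model. Etfb shared 38.5% of its windows with Gm45233, Hadhb 38.1% with Gm13910 and Gm9108, Acadvl 29.0% with Dvl2, Fabp3 20.9% with Fabp3-ps1 and Zcchc17, Acaa1a 18.5% with Acaa1b and Myd88, Eci2 15.1% with 4 genes, Slc25a20 12.7% with 4 genes and Acsl1 11.6% with Gm45244. The other genes shared under 10% of theirs, and G0s2, Ppara, Pdk4, Dgat2 and Cd36 shared none. Dvl2, Zcchc17, Myd88 and Gm45244 lie on the opposite strand to the gene they overlap. Whether the shared windows cost any gene reads was not tested.

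**Figure D5:**
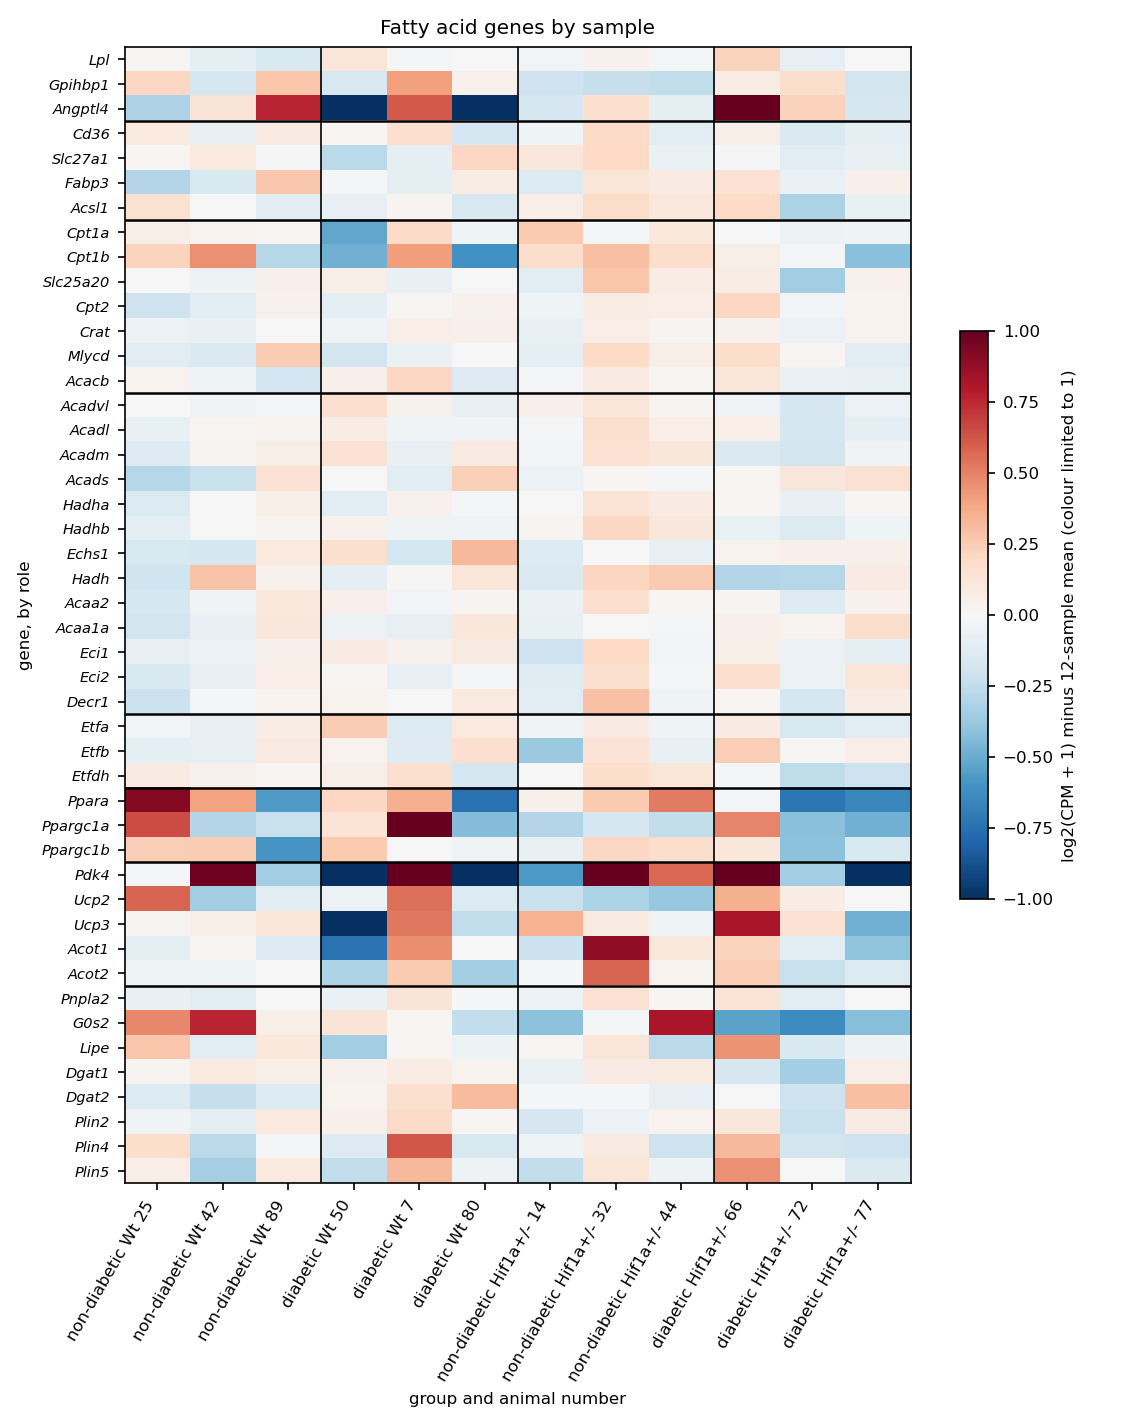
Deviation of log2(CPM + 1) of each of the 46 genes (rows, with lines between roles) from its mean over 12 samples (columns, with lines between groups), red above and blue below, with colour limited to 1. Unexposed Hif1a+/- replicate 32 is above the mean in 38 of 46 genes and diabetes-exposed Hif1a+/- replicate 72 in 10.

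Single samples moved many of the genes at once. Unexposed Hif1a+/- replicate 32 was the highest of the 12 samples in 13 of the 46 genes, 7 of them beta-oxidation genes. Diabetes-exposed Hif1a+/- replicate 72 was the lowest in 12 genes, and unexposed Wt replicate 25 was the lowest in 6 of the 13 beta-oxidation genes.

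Other genes of the pathway that were not among the 46 were tested as well. Of 58 listed, 56 were tested, and Slc27a6 and Lipg were too low. None passed by edgeR in any comparison. In diabetes-exposed against unexposed Hif1a+/- hearts 9 of the 56 had an unadjusted edgeR p under 0.05, against 12.0% of all genes. There were 6 in diabetes-exposed Hif1a+/- against unexposed Wt (8.85% of all genes) and 6 for pregnancy over both genotypes (11.3%). The other comparisons of 2 groups and the interaction had 0 or 1 (0.959% to 5.35% of all genes). Vldlr, the receptor for triglyceride-rich lipoproteins, passed by DESeq2 in diabetes-exposed against unexposed Hif1a+/- hearts, as 1 of the 56, where 1.44% of all genes passed. It had 526, 612 and 534 CPM in unexposed and 478, 425 and 429 CPM in diabetes-exposed Hif1a+/-, without overlap, a log2 fold change of -0.33 ± 0.09 (edgeR adjusted p 0.24, DESeq2 adjusted p 0.039). It also passed by DESeq2 over both genotypes (adjusted p 0.093), again as 1 of the 56, where 1.46% of all genes passed. Esrrg and Ncor1 are named because, after Vldlr, they had the smallest edgeR p of these genes for any difference among the 4 groups. Esrrg, a nuclear receptor that drives oxidative genes, had a log2 fold change of -0.36 ± 0.13 in the same Hif1a+/- comparison, and Ncor1, a corepressor, -0.36 ± 0.12, with edgeR adjusted p of 0.33 and 0.30.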

How the data were processed

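LV RNA of 12 mice was sequenced as single 75-base reads. The authors trimmed the reads with Trimmomatic, removed ribosomal reads with SortMeRNA, aligned the rest with STAR (version 2.5.2b) to GRCm38 with GENCODE M8 and counted them with htseq-count, and they deposited whole-number counts per gene for each sample. Reads that aligned to several places, between 12.4% and 17.0% of a sample, were not counted. The tally lines (all unassigned reads, between 20.2% and 24.2%) and the deposited normalized values were not used here.

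Counts were tested in R (version 4.3.3) with edgeR's quasi-likelihood test (version 4.0.16), with TMM scaling, filterByExpr by group, 1 mean per group and all 12 samples together. Benjamini-Hochberg adjustment ran over the 14706 genes tested, with a threshold of 0.1. The biological coefficient of variation was 13.7% with 8 residual degrees of freedom, so that the spread between samples set the precision more than counting error did. The samples came from several litters per group, which the labels do not number.

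The alternatives were DESeq2 (version 1.42.0), limma-voom with sample weights (limma version 3.58.1), DESeq2 size factors in edgeR, no filter, a threshold of 0.05, the 2 compared groups alone, a pseudocount of 0.1 in the correlations, and leaving out each sample. The scripts were tested on simulated data. Correlations used log2(CPM + 1) and two-sided permutation tests with 100000 resamples, or all 1296 exact permutations within groups (scipy version 1.17.1), and 1 of the 7 pairs is not reported here. Symbols and positions came from GENCODE M21 on GRCm38. The rule for named genes took Cd36, those passing by edgeR or DESeq2, the 3 with the smallest p in each comparison of 2 groups and in the interaction, the most abundant of each role, and Acot1, Acot2 and Acaa1a. Other genes were named after their values were seen. The 46 genes and all lists were chosen with earlier results of these data known.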

Additional observations from a re-analysis of the deposited data

How the results depend on the processing

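No paired analysis was possible because the animal numbers in the titles are not shared between groups. The 46 genes gave no edgeR call in any comparison with DESeq2 size factors, at a threshold of 0.05, with the compared groups alone or without any 1 sample. With no filter on low counts, edgeR called 1 (G0s2) in diabetes-exposed against unexposed Wt, 2 (G0s2, Ppara) in diabetes-exposed Hif1a+/- against unexposed Wt, 3 (G0s2, Ppara, Ucp2) in diabetes-exposed against unexposed Hif1a+/-, 3 (Angptl4, G0s2, Ppargc1a) in diabetes-exposed Hif1a+/- against diabetes-exposed Wt, 1 (Angptl4) in the interaction, 2 (G0s2, Ppara) in diabetes-exposed against unexposed over both genotypes, 2 (G0s2, Ppargc1a) in Hif1a+/- against Wt over both pregnancies and 5 (Angptl4, G0s2, Ppara, Ppargc1a, Ucp2) in the test of any difference. DESeq2 called 1 (G0s2) in diabetes-exposed Hif1a+/- against unexposed Wt, 1 (G0s2) in diabetes-exposed against unexposed over both genotypes and 1 (G0s2) in the test of any difference. Limma-voom called 2 (Etfdh, Hadhb) in diabetes-exposed against unexposed Hif1a+/-. This unfiltered fit called between 33 and 689 of 27093 genes in all, and gave G0s2 an SE of 0.13 in diabetes-exposed Hif1a+/- against unexposed Wt in place of 0.25, and the cause was not tested. Leaving out 1 sample, the median log2 fold change of the 46 genes ranged from -0.093 to 0.066 in diabetes-exposed Hif1a+/- against unexposed Wt and from -0.12 to 0.041 in diabetes-exposed against unexposed Hif1a+/-, the ends that moved most being without diabetes-exposed Hif1a+/- replicate 66 and without unexposed Hif1a+/- replicate 32. The log2 fold changes of the named genes changed sign in 127 of 2222 repeats, 110 times by less than 1 SE, and in none of these was the value called. By DESeq2, the sign changed for Ucp2 in diabetes-exposed Hif1a+/- against diabetes-exposed Wt (0.0012). By limma-voom, the sign changed for Cd36 in unexposed Hif1a+/- against unexposed Wt (0.032), Echs1 in unexposed Hif1a+/- against unexposed Wt (0.063), Gpihbp1 in diabetes-exposed against unexposed Wt (-0.031), Ucp2 in diabetes-exposed Hif1a+/- against diabetes-exposed Wt (0.048), Lpl in diabetes-exposed Hif1a+/- against diabetes-exposed Wt (-0.041), Crat in diabetes-exposed against unexposed Hif1a+/- (-0.023), Ppargc1a in diabetes-exposed against unexposed Hif1a+/- (-0.028), Pnpla2 in diabetes-exposed Hif1a+/- against diabetes-exposed Wt (3.7e-05), Acot1 in diabetes-exposed against unexposed Wt (-0.27), Acot1 in diabetes-exposed Hif1a+/- against unexposed Wt (-0.091), Acot1 in diabetes-exposed Hif1a+/- against diabetes-exposed Wt (0.17) and Acot2 in diabetes-exposed Hif1a+/- against unexposed Wt (-0.044). With no filter, the sign changed for Ucp2 in diabetes-exposed Hif1a+/- against diabetes-exposed Wt (0.012), Pdk4 in diabetes-exposed Hif1a+/- against unexposed Wt (0.0099) and Pnpla2 in diabetes-exposed Hif1a+/- against diabetes-exposed Wt (0.0018). With the compared groups alone, the sign changed for Echs1 in unexposed Hif1a+/- against unexposed Wt (0.00021) and Gpihbp1 in diabetes-exposed against unexposed Wt (-3.0e-05). Without 1 sample at a time, ranges that crossed 0 in diabetes-exposed against unexposed Wt were -0.10 to 0.057 for Cd36, -0.17 to 0.13 for Gpihbp1, -0.19 to 0.38 for Ucp2, -0.022 to 0.039 for Hadhb, -0.67 to 0.033 for Ppara, -0.030 to 0.0055 for Dgat1, -0.10 to 0.063 for Etfdh, -0.028 to 0.032 for Acadl, -0.00055 to 0.19 for Etfa, -0.23 to 0.77 for Ppargc1a, -1.77 to 0.34 for Pdk4, -0.30 to 0.37 for Acot1, -0.30 to 0.034 for Acot2 and -0.032 to 0.12 for Acaa1a. In unexposed Hif1a+/- against unexposed Wt they were -0.12 to 0.036 for Cd36, -0.68 to 0.0029 for G0s2, -0.055 to 0.091 for Echs1, -0.40 to 0.30 for Ppara, -0.061 to 0.023 for Dgat1, -0.032 to 0.059 for Etfa, -0.52 to 0.019 for Ppargc1a, -0.21 to 0.80 for Pdk4 and -0.059 to 0.10 for Acaa1a. In diabetes-exposed against unexposed Hif1a+/- they were -0.14 to 0.027 for Cd36, -0.069 to 0.20 for Dgat2, -0.041 to 0.13 for Lpl, -0.039 to 0.042 for Crat, -0.22 to 0.35 for Ppargc1a, -1.44 to 0.21 for Pdk4 and -0.10 to 0.041 for Pnpla2. In diabetes-exposed Hif1a+/- against diabetes-exposed Wt they were -0.15 to 0.012 for Cd36, -0.20 to 0.042 for Echs1, -0.21 to 0.088 for Gpihbp1, -0.13 to 0.25 for Ucp2, -0.078 to 0.079 for Lpl, -0.053 to 0.012 for Crat, -0.96 to 0.060 for Ppargc1a, -0.98 to 1.76 for Pdk4, -0.080 to 0.047 for Pnpla2, -0.36 to 0.31 for Acot1 and -0.083 to 0.31 for Acot2. In the interaction they were -0.14 to 0.049 for Cd36, -0.52 to 0.16 for G0s2, -0.19 to 0.043 for Echs1, -0.16 to 0.0075 for Lpl, -0.62 to 0.41 for Ppargc1a, -1.30 to 1.45 for Pdk4, -0.34 to 0.059 for Acot2 and -0.0028 to 0.16 for Acaa1a. In diabetes-exposed Hif1a+/- against unexposed Wt they were -0.21 to 0.0079 for Gpihbp1, -0.12 to 0.38 for Ucp2, -0.13 to 0.0012 for Acadl, -0.12 to 0.0085 for Etfa, -0.56 to 0.20 for Ppargc1a, -1.13 to 0.48 for Pdk4, -0.0028 to 0.13 for Pnpla2, -0.21 to 0.16 for Acot1 and -0.15 to 0.10 for Acot2. The correlation of Pdk4 with Plin2 ranged from -0.080 to 0.25 and that with Cpt1a from 0.24 to 0.59, the latter passing without unexposed Hif1a+/- replicate 14, and those with Acot1, Acot2, Angptl4 and Ucp3 kept their calls in these repeats. Angptl4 and Ucp3 lost theirs without the 2 samples farthest from the median of Pdk4 (permutation adjusted p 0.11 for each). Within groups Ucp3 did not pass either (exact permutation adjusted p 0.19). With 3 samples a group, differences under the spread between samples cannot be told from none.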
